A study of Mus musculus with 28 samples.

Results

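The Hnrnp, Srsf and Rbm genes encode RNA-binding proteins that act on mRNA while it is being made, spliced and exported. The members are all genes whose symbol starts with Hnrnp, with Srsf followed by a number or with Rbm followed by a number, leaving out symbols marked as pseudogenes and leaving out Rbm47. This gave 71 of 39855 gene symbols, of which 20 are Hnrnp, 11 are Srsf and 40 are Rbm symbols. The rule also took in Rbm3os and Rbm46os, opposite-strand transcripts that encode no such protein and passed the expression filter in none of the comparisons. Set 1 lists 70 of them and set 2 lists 69, and 68 are in both.

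The study asked what the human cytidine deaminase APOBEC3B (A3B) does to RNA and DNA in mouse tissues when it is switched on. RNA-seq was made in 2 sets that were processed differently. Set 2 holds 6 A3B and 2 control livers and 6 A3B and 2 control pancreases. Set 1 holds 3 A3B and 3 control livers and 3 A3B and 3 control lungs. A3B mice carry the TetO-A3B transgene, fused to turboGFP at the ColA1 locus, together with CAGs-rtTA3, a transactivator under a broadly active promoter that turns the transgene on when doxycycline is in the food. By the labels both A3B and control animals of set 2 had 625 ppm doxycycline for 10 days. The methods of the study likewise give doxycycline to control littermates, whereas a legend for these samples describes the controls as without it. In set 1 the labels give the controls 15 days, A3B livers 23 and 28 14 days, and A3B liver 70 and the 3 A3B lungs 10 days, so the time on the diet and the genotype cannot be told apart there. Groups were taken from the sample titles. The genotype labels go against the titles in 5 samples, since A3B pancreases 44 and 137 are labelled with A3B alone and control pancreases 45 and 168 and control liver 11 with A3B + CAGS-rtTA. For the 4 mice 44, 137, 45 and 168 the labels of liver and pancreas contradict each other, and their liver labels go with the titles. Control lung 87 is labelled with CAGs alone, and the remaining controls with A3B alone. The labels give no age. By the numbers in the titles, mice 44, 49, 125, 137, 153, 45 and 168 gave both tissues in set 2, and in set 1 mice 70 and 91 gave both a liver and a lung.

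By background knowledge, hnRNP proteins coat nascent transcripts and often keep nearby exons from being used, whereas SR proteins, encoded by the Srsf genes, bind exonic enhancers and recruit the spliceosome. Many of these genes limit their own output by splicing in an exon with a premature stop codon or by keeping an intron, and such transcripts are degraded by nonsense-mediated decay or kept in the nucleus. The protein-coding Rbm genes share only an RNA recognition motif and have varied roles, from the exon junction complex (Rbm8a) and m6A deposition (Rbm15, Rbm15b) to the cold response (Rbm3).

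Set 2 libraries held 65161064 to 118976013 estimated counts. Set 1 was deposited as TPM, a length-scaled share of all transcripts, so its depth is unknown. No samples held identical values. Human APOBEC3B, listed in set 1, lay at 705 to 1705 TPM in A3B livers against 0.0928 to 0.144 TPM in control livers, and at 90.6 to 281 TPM in A3B lungs against 0.435 to 0.526 TPM in control lungs, so no title went against the transgene there. Livers, pancreases and lungs all showed the markers of their tissue, with summed hepatocyte markers of 40960 to 160352 TPM in the livers of set 2 and summed alveolar type II markers of 11306 to 13644 TPM in the lungs. The makeup of the pancreas differed between groups. The 12 acinar markers summed to 64895 to 173436 TPM in A3B pancreases and to 379812 and 385675 TPM in the controls, and 11 of them were lower by edgeR's quasi-likelihood test with Benjamini-Hochberg adjustment at 0.05. Macrophage markers summed to 1203 to 3615 TPM against 38.3 and 520 TPM, with 5 of 8 higher, and fibroblast markers to 985 to 1523 TPM against 42.6 and 190 TPM, with 6 of 8 higher. In bulk tissue, fewer cells of a type and less RNA per cell cannot be told apart.

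The most abundant members differed between the tissues of set 2 and also between the livers of set 1 and of set 2. The acinar, macrophage and fibroblast values above bear on these levels, which are shares of all transcripts. In control pancreases the leading members were Srsf6 (86.8 ± 34.0 TPM, SD, n = 2), Srsf5 and Hnrnpa2b1, and in A3B pancreases they were Rbm3 (382 ± 105 TPM, SD, n = 6), Hnrnpa1 (292 ± 41.5 TPM) and Hnrnpk (234 ± 40.1 TPM). Hnrnpa2b1, Hnrnpk and Srsf5 led in both groups of set 2 livers. In set 1, Rbm39, a splicing factor related to U2AF, was the highest member in all 4 groups, with 1055 TPM as the mean of A3B livers and 317 TPM as the mean of control livers. Rbm31y was listed at 0 in all 28 samples. Rbm44, Rbm11 and Srsf12 averaged at most 0.282 TPM in any group of set 2. Rbm4, Rbm12 and Rbm14 were listed at 0 in all of set 1 whereas in set 2 livers each lay above 1 TPM in every sample.

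**Figure D1:**
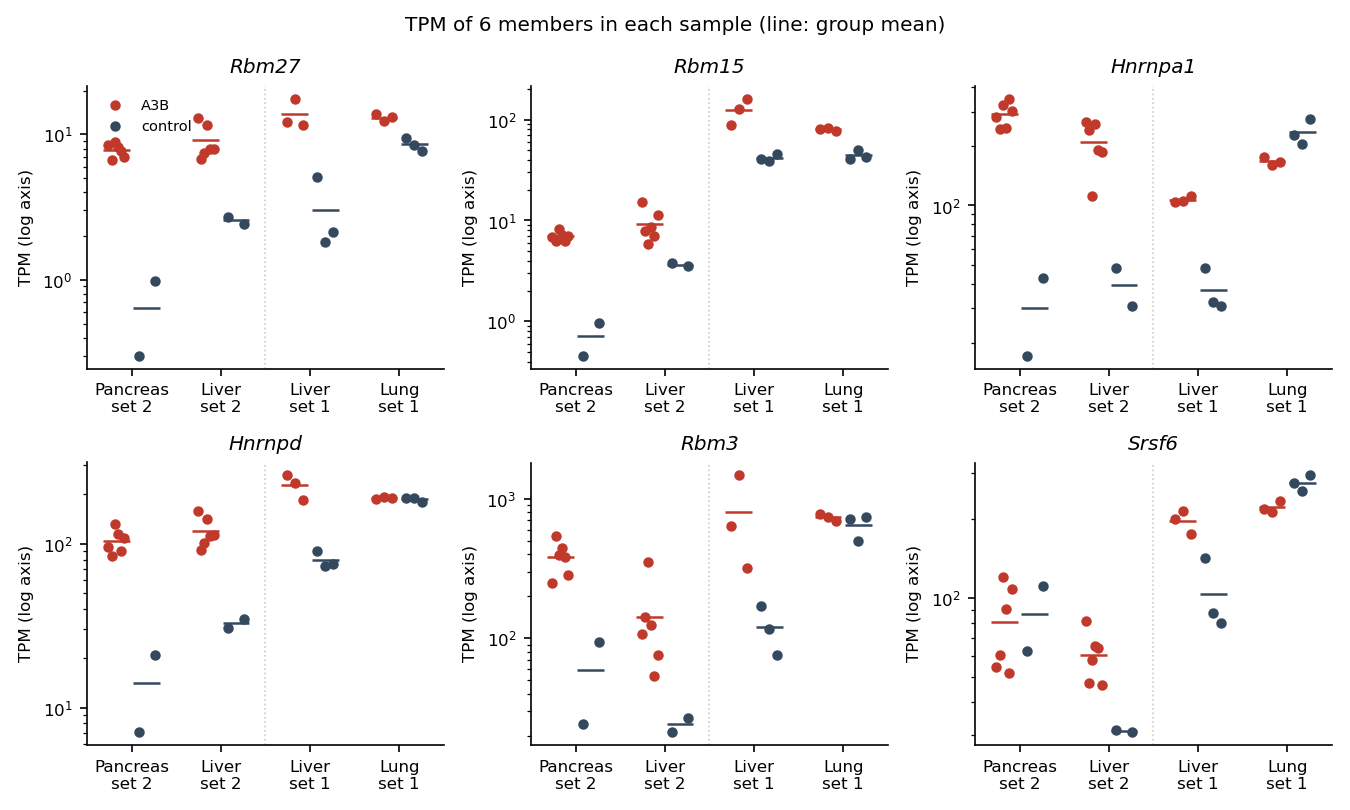
TPM on a log axis for 6 members, with each point 1 sample and each line a group mean, for the 4 comparisons. Rbm27 and Rbm15 lie higher in every A3B sample than in every control of the same tissue, whereas Srsf6 overlaps between the groups in the pancreas and lies lower in A3B lungs.

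In the pancreas, 11 members rose and 12 fell on the TMM scale, which sets each library's scale from the bulk of its genes and not from its total. Of the 12 that fell, 11 had a value above 0 when libraries were scaled by their totals or compared as TPM, with 6 of them past the threshold under totals and 9 under TPM, and Srsf6 stayed below 0. Of all 19123 genes tested, 17.0% rose and 14.9% fell on the TMM scale, so the members' 11 and 12 of 68 lie close to the background. TMM factors were 0.210 and 0.443 in the controls and 1.30 to 1.79 in A3B pancreases. Scaling by totals moved the median over all genes (log2 fold change) from 0.09 to 2.29 and that over the 68 members tested from 0.02 to 2.20. On the TPM scale every A3B pancreas lay above both controls in 57 of the 68 members and in 70.8% of all genes tested, and all A3B pancreases lay below both controls in 0 members and in 1.07% of genes. Changes below are therefore to be read relative to the median of all genes. A rescaling of the libraries moves all genes by nearly the same amount, so the side of that median on which a member lies is largely fixed by it and is no sign of stability.

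Srsf6, an SR protein, stood lowest among the members. It lay between 51.5 and 120 TPM (median 75.6) in A3B pancreases and at 62.8 and 111 TPM in the controls. The groups overlap, and Srsf6 is the only member tested whose mean TPM was not higher in A3B pancreases, with a ratio of means of 0.931. Its log2 fold change was -2.47 ± 0.32 (SE) on the TMM scale, with an edgeR adjusted p of 0.000466. Relative to the median of all genes it was -2.57 under TMM, -2.50 under totals and -1.87 under TPM. The call held without any 1 of the 8 libraries.

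The Srsf genes had a low median, and the family was not tested as a set. Of 11 tested, 0 rose and 5 fell on the TMM scale by edgeR, against 17.0% and 14.9% of all genes. The family median was -0.41, which is 0.50 below that of all genes, and under scaling by totals 4 of the 5 falls turned positive. On the TMM scale these 4 were Srsf5 (-1.17), Srsf2 (-1.14), Srsf7 (-1.05) and Srsf11 (-1.0). Srsf2, the SR protein also known as SC35, lay between 49.6 and 117 TPM (median 75.7) in A3B pancreases against 24.3 and 55.0 TPM, so the groups overlap in TPM. Its log2 fold change of -1.14 ± 0.24 (SE, edgeR adjusted p = 0.00498) on the TMM scale became 1.05 under totals, and its value relative to all genes was -1.23 under both. Srsf1, Srsf3, Srsf4, Srsf9 and Srsf10 had values between -0.41 and 0.11 and did not pass the test. Srsf12, the least abundant of the family, had 2.29 ± 0.91 (SE, edgeR adjusted p = 0.0775).

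The Hnrnp genes went both ways, with 6 of 20 higher and 4 lower on the TMM scale, against 17.0% and 14.9% of all genes. Hnrnpab (1.12), Hnrnpa0 (0.91), Hnrnpul1 (0.90), Hnrnpa1 (0.89), Hnrnpul2 (0.80) and Hnrnpd (0.64) rose. Hnrnpa1, one of the most abundant hnRNP proteins and a splicing silencer, lay between 246 and 349 TPM (median 293) in A3B pancreases and at 17.2 and 42.8 TPM in the controls. These groups are far apart, and the edgeR log2 fold change was 0.89 ± 0.28 (SE, adjusted p = 0.0337) on the TMM scale. It lost the call without A3B pancreas 137 or 153 or either control. Hnrnph3 (-1.38), Hnrnpa3 (-1.26), Hnrnpdl (-1.03) and Hnrnph1 (-1.01) fell on the TMM scale, and all 4 were above 0 under totals and TPM. Hnrnpa3 was nevertheless higher in TPM in every A3B pancreas (34.9 to 80.2, median 48.6) than in the controls (11.9 and 27.6 TPM).

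Among the Rbm genes 5 of 37 rose and 3 fell on the TMM scale, against 17.0% and 14.9% of all genes. Rbm27, a zinc finger protein linked to nuclear RNA decay, lay between 6.66 and 8.87 TPM (median 7.90) in A3B pancreases and at 0.30 and 0.982 TPM in the controls. Its log2 fold change of 1.54 ± 0.24 (SE, edgeR adjusted p = 0.00119) was the largest rise among the members that passed. Rbm15, an adaptor of the m6A writer complex, lay between 6.27 and 8.15 TPM (median 6.99) against 0.457 and 0.967 TPM, with a log2 fold change of 1.08 ± 0.20 (SE, edgeR adjusted p = 0.00272). Both genes therefore have groups that do not overlap, and both kept their call without any 1 library. Rbm42 (1.33), the exon junction protein Rbm8a (1.10) and the splicing factor Rbm17 (1.0) also rose. Rbm5 (-1.11), Rbm4b (-0.99) and Rbm10 (-0.81), all splicing regulators, fell on the TMM scale and were above 0 under totals and TPM. Rbm3, the cold-inducible protein, reached 250 to 539 TPM (median 390) against 24.3 and 93.6 TPM, and with a log2 fold change of 0.62 ± 0.34 (SE, edgeR adjusted p = 0.190) it did not pass. Over the 8 fits that left out 1 pancreas, 7 to 11 members rose and 6 to 13 fell, with the fewest without control 168 (7 and 7) and without control 45 (9 and 6). Without A3B pancreas 44 they were 9 and 9 and without A3B pancreas 137 8 and 9, these 4 being the pancreases whose labels go against their titles. Of all genes 14.8% rose and 13.5% fell without A3B pancreas 44, and 14.9% and 13.1% without A3B pancreas 137. Without either control, too, fewer of all genes rose and fewer fell than with all 8 libraries. The acinar, macrophage and fibroblast markers given above moved with the groups in all these counts, and their part in the results was not tested. Of the calls, 3 rises (Rbm27, Rbm15, Rbm8a) and 4 falls (Srsf6, Hnrnph3, Hnrnpa3, Srsf2) held in all 8.

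**Figure D2:**
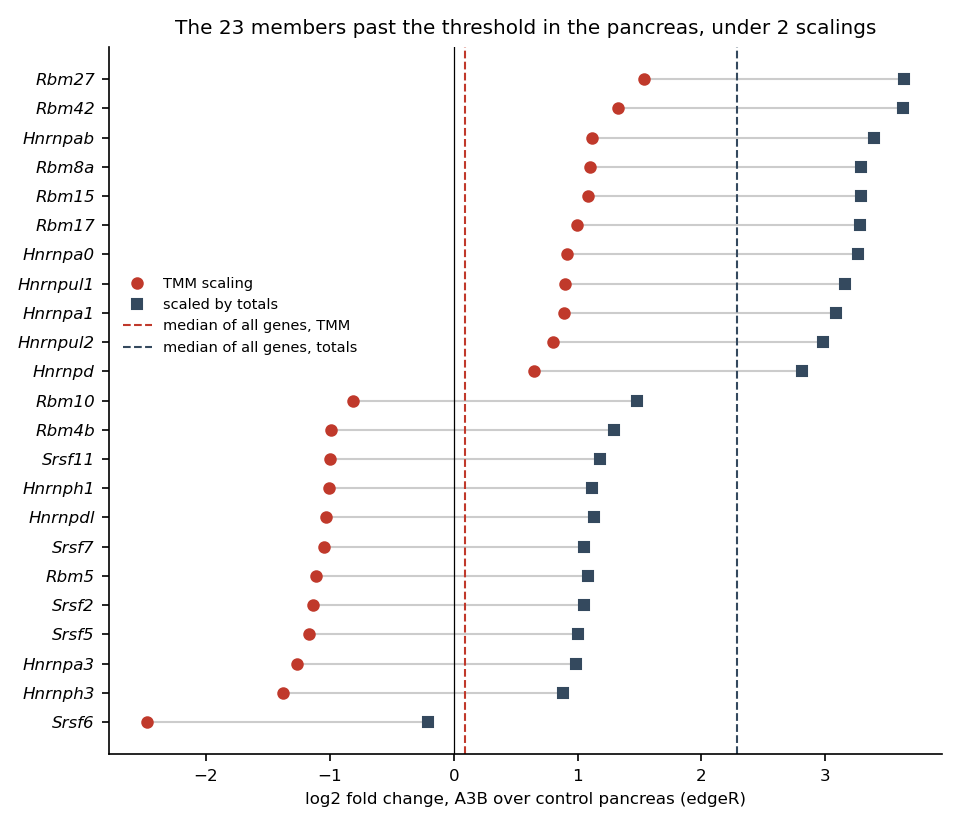
Log2 fold change (A3B over control pancreas, edgeR) of the 23 members past the threshold, with circles for TMM scaling and squares for scaling by totals, and dashed lines for the median of all genes under each. The 12 members that fall under TMM move to the right of 0 under totals, apart from Srsf6 at -0.21, and the dashed line moves with them.

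In the livers of set 2, 3 members rose (Hnrnpa1, Rbm27 and Hnrnpd) and 0 fell by edgeR, against 1.26% of 17365 genes that rose and 2.41% that fell. At an unadjusted p under 0.05 the same test counted 24 of the 67 members tested and 22.9% of all genes, and without either control it counted 6 members. The members' median log2 fold change was 0.65 and that of all genes 0.21, and scaling by totals moved the latter to 0.67. In TPM, every A3B liver lay above both controls in 41 members and in 24.3% of all genes, and below both in 0 members and 5.42% of genes.

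Hnrnpa1 lay between 111 and 265 TPM (median 217) in A3B livers and at 48.3 and 30.7 TPM in the controls. Its log2 fold change was 2.20 ± 0.43 (SE, edgeR adjusted p = 0.0284). Rbm27 lay between 6.83 and 13.0 TPM (median 7.97) against 2.71 and 2.42 TPM, with 1.44 ± 0.30 (SE, edgeR adjusted p = 0.0350). Neither gene overlapped between groups. Hnrnpd, also known as AUF1, which binds AU-rich elements and speeds mRNA decay, lay between 91.2 and 158 TPM (median 112) against 30.5 and 34.7 TPM. Its log2 fold change was 1.31 ± 0.30 (SE, edgeR adjusted p = 0.0452), and again the groups were apart.

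These calls depended on single livers. Leaving out control 45, control 168 or A3B liver 44, 137 or 125 left 0 members called, whereas leaving out A3B liver 49 gave 8 (3.84% of all genes higher). DESeq2 called 12 members higher and 0 lower in the same livers, scaling by totals 16 and 0, and limma on TPM 10 and 0, where these settings called 7.49%, 5.06% and 4.46% of all genes higher. Summed hepatocyte markers were 40960 to 100473 TPM in A3B livers and 99004 and 160352 TPM in the controls, macrophage markers 29.1 to 806 TPM against 243 and 276 TPM, and airway club and ciliated markers 50.7 to 597 TPM against 940 and 1048 TPM. By edgeR 0 of 9 hepatocyte, 0 of 8 macrophage and 0 of 4 airway markers passed. Their part in the result was not tested.

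Several members with larger fold changes than Hnrnpd did not pass. Rbm12b1, a little-studied gene with a near-identical neighbour in Rbm12b2, lay between 9.25 and 63.5 TPM (median 44.1) against 3.39 and 3.33 TPM, with 3.07 ± 0.77 (SE, edgeR adjusted p = 0.0589). Rbm3 lay between 53.8 and 351 TPM (median 115) against 21.3 and 27.1 TPM, with 2.14 ± 0.65 (SE, edgeR adjusted p = 0.0949). A3B liver 49 alone held the value of 351 TPM, and the other 5 lay at or under 143 TPM. Srsf6, low in the pancreas, had 46.5 to 81.9 TPM (median 61.1) in A3B livers against 31.3 and 30.7 TPM, with a log2 fold change of 0.53 ± 0.33 (SE, edgeR adjusted p = 0.356). Hnrnpa2b1 overlapped between groups, at 196 to 329 TPM (median 238) against 270 and 202 TPM, with -0.31 ± 0.32 (SE).

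The livers of set 1, from other animals, had 10 members higher and 0 lower by limma on log2(TPM + 1), against 6.07% of 11507 genes higher and 1.86% lower. Of the 58 members tested, 41 passed an unadjusted p under 0.05, against 32.6% of all genes, with 21 without control 91 and 19 without control 92. The members' median was 1.0 and that of all genes 0.39. In TPM, the 3 A3B livers lay above the 3 controls in 43 members and in 28.5% of all genes, and below them in 1 member, Hnrnpa3, and in 10.3% of genes. Hnrnpa3 was at 23.1, 14.3 and 25.6 TPM in A3B livers and at 39.1, 38.0 and 29.9 TPM in the controls, with -0.77 ± 0.33 (SE, limma adjusted p = 0.151).

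The largest changes were in Rbm genes. Rbm12b1 lay at 65.3, 26.6 and 69.9 TPM in A3B livers and at 7.74, 6.10 and 6.20 TPM in the controls, a log2 fold change of 2.73 ± 0.42 (SE, limma adjusted p = 0.0220). Its neighbour Rbm12b2 lay at 10.0, 12.1 and 9.67 TPM against 2.71, 1.53 and 1.20 TPM, with 2.08 ± 0.31 (SE, limma adjusted p = 0.0212). Reads of these similar genes may be split between them, so their values are not independent. Rbm3 lay at 639, 1469 and 317 TPM against 170, 117 and 75.5 TPM, with 2.53 ± 0.59 (SE, limma adjusted p = 0.0446). The groups do not overlap, and the A3B livers spread widely, with an SD of 594 TPM (n = 3) around a mean of 809 TPM.

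Rbm27 was at 12.1, 17.6 and 11.6 TPM in A3B livers and at 5.09, 1.83 and 2.14 TPM in the controls, with 1.94 ± 0.38 (SE, limma adjusted p = 0.0354). Rbm15 was at 88.6, 127 and 161 TPM against 40.9, 39.0 and 45.4 TPM, with 1.53 ± 0.32 (SE). Rbm39 was at 1110, 1255 and 800 TPM against 420, 271 and 261 TPM, with 1.74 ± 0.33 (SE). All 3 genes had groups that do not overlap.

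Hnrnpa1 lay at 104, 105 and 112 TPM against 48.2, 32.2 and 30.7 TPM, with 1.54 ± 0.30 (SE, limma adjusted p = 0.0346), and Hnrnpd at 261, 234 and 184 TPM against 90.8, 73.2 and 75.1 TPM, with 1.49 ± 0.29 (SE). Rbm15b (1.68), a second m6A adaptor, and Rbm34 (1.21) complete the 10. Among the Srsf genes 0 of 10 passed by limma, with a median of 1.01 and a lowest value of -0.25 in Srsf9.

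These 10 calls depended on single livers and on the test. Without control 91, control 92 or A3B liver 23, 0 members passed, where 0.00862%, 0.0603% and 0.372% of all genes were higher in turn. Without control 11, whose label names both transgenes, 21 did, against 11.8% of all genes that were higher without it. Keeping every gene above 0 in any sample left 0 members called (0.203% of all genes higher). Setting the sample medians equal left Rbm12b1, Rbm12b2 and Rbm27 (2.36% of all genes higher), with all 10 still above 0 in both settings. Summed hepatocyte markers were 7660 to 12159 TPM in A3B livers and 12691 to 15918 TPM in the controls. Alveolar type II markers summed to 239 to 932 TPM against 698 to 1916 TPM in the same livers, and airway markers to 18.2 to 445 TPM against 585 to 1006 TPM. Endothelial markers summed to 72.7 to 99.0 TPM against 133 to 156 TPM and acinar markers to 19.1 to 35.6 TPM against 55.7 to 121 TPM, without overlap. Few single markers passed by limma, with 1 of 9 hepatocyte markers lower and 0 of 5 endothelial and 0 of 2 airway markers called. Of 2 acinar markers tested 1 was higher and 1 lower, and of 3 alveolar type II markers 1 was higher and 0 lower. The part of these markers in the result was not tested.

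The liver comparisons of the 2 sets share no animal. Of the 58 members tested in both, 50 had a fold change above 0 in both sets, 86.2% against 49.5% of the 10884 genes tested in both, and 4 were below 0 in both. Hnrnpa1, Rbm27 and Hnrnpd passed in both.

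**Figure D3:**
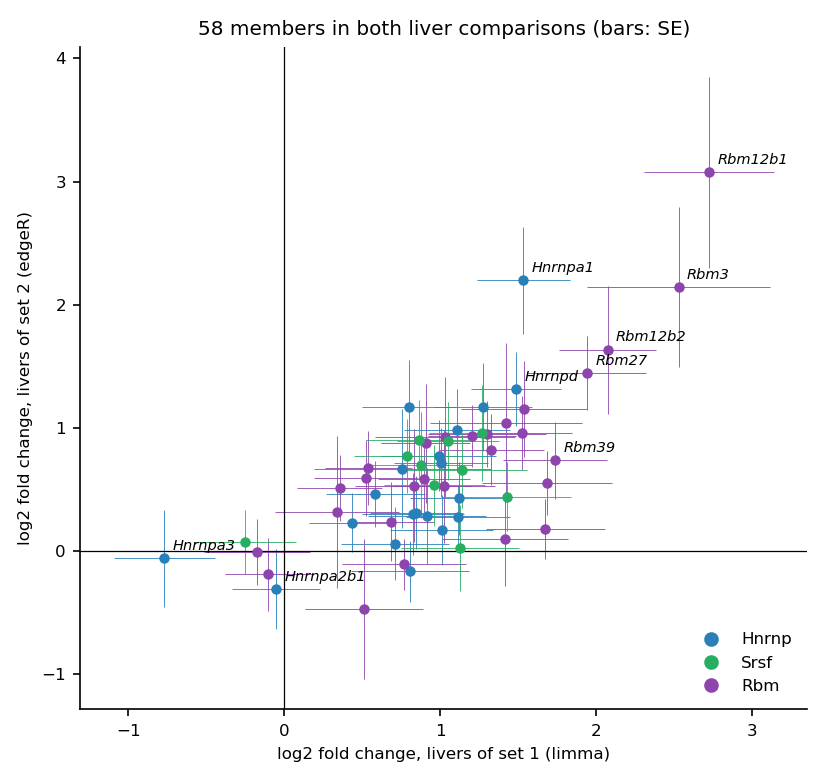
Log2 fold change (A3B over control) of 58 members in the livers of set 1 (x axis, limma) and of set 2 (y axis, edgeR), coloured by family, with bars for the SE. Most points (50) lie above 0 on both axes, and Rbm12b1, Rbm3 and Hnrnpa1 lie farthest out.

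In the lungs, where the transgene was lower, 6 members rose and 14 fell by limma, against 16.1% of 13651 genes that rose and 20.8% that fell. In TPM, A3B lungs lay above all controls in 10 of the 59 members tested and in 23.3% of all genes, and below all controls in 19 members and in 30.6% of genes. The members' median was -0.05 and that of all genes -0.06. The fold changes were smaller than in the other tissues, from -0.81 to 0.83.

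Rbm15 had the largest rise on the log2(TPM + 1) scale, from 40.8, 50.3 and 43.0 TPM in control lungs to 80.3, 81.9 and 77.8 TPM in A3B lungs, with a log2 fold change of 0.83 ± 0.10 (SE, limma adjusted p = 0.00373). Rbm27 was at 13.8, 12.3 and 13.2 TPM against 9.45, 8.51 and 7.65 TPM, with 0.56 ± 0.11 (SE, limma adjusted p = 0.00938). In both genes the groups are apart. Rbm24, a splicing regulator of muscle (0.63), Rbm33 (0.60), the SR protein gene Srsf4 (0.58) and Rbm26, a relative of Rbm27 (0.46), also rose. All 6 rises held without any 1 lung.

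Srsf1, the prototype SR protein, fell from 128, 112 and 129 TPM in control lungs to 65.0, 67.5 and 86.1 TPM in A3B lungs, with a log2 fold change of -0.76 ± 0.13 (SE, limma adjusted p = 0.00800). Srsf9 fell from 95.2, 98.7 and 110 TPM to 61.9, 66.0 and 70.7 TPM, with -0.60 ± 0.10 (SE, limma adjusted p = 0.00657). Both groups of values are apart. Srsf3 (-0.41) and Srsf6 (-0.30) fell as well, so that 4 of 10 Srsf genes fell and 1 rose, against 20.8% and 16.1% of all genes.

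Hnrnpa1, which rose in the pancreas and in both sets of livers, fell in the lung, from 229, 207 and 277 TPM in the controls to 176, 162 and 166 TPM, with -0.49 ± 0.12 (SE, limma adjusted p = 0.0230). Hnrnph1 (-0.41), Hnrnpa2b1 (-0.39), Hnrnpc (-0.29) and Hnrnpm (-0.28) fell too, and 0 of 20 Hnrnp genes rose. Of all genes 20.8% fell and 16.1% rose. Hnrnpd overlapped between groups, at 189, 192 and 191 TPM against 191, 190 and 179 TPM, with 0.03 ± 0.08 (SE).

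Of the Rbm genes, Rbm43 (-0.81), Rbm12b2 (-0.81), Rbm4b (-0.50), Rbm10 (-0.45) and Rbm45 (-0.44) fell. Rbm12b2 lay at 4.84, 4.60 and 7.08 TPM in A3B lungs and at 9.44, 9.97 and 11.4 TPM in the controls, opposite to its direction in the livers of set 1. Of the 14 falls, 5 (Srsf1, Srsf9, Rbm43, Rbm12b2, Rbm10) held without any 1 lung, and 5 members fell without A3B lung 70, 6 without A3B lung 69, 7 without control 87 and 9 without control 91. In those fits 12.5%, 11.3%, 16.9% and 13.3% of all genes fell, in that order. Airway club and ciliated markers summed to 8875 to 9490 TPM in A3B lungs and to 10106 to 10800 TPM in the controls, macrophage markers to 962 to 998 TPM against 1190 to 1296 TPM, and endothelial markers to 4615 to 5237 TPM against 3716 to 4004 TPM. By limma 3 of 8 macrophage markers were higher and 1 lower, with a median log2 fold change of 0.74. Of 6 endothelial markers 1 was higher and 2 lower, with a median of -0.13, and of 5 airway markers 0 were higher and 2 lower. The macrophage and endothelial sums thus moved against most calls in their lists. Hepatocyte markers summed to 50.1, 1061 and 910 TPM in A3B lungs 69, 70 and 74 and to 32.8, 1083 and 93.9 TPM in control lungs 87, 88 and 91. Their part in the results was not tested.

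**Figure D4:**
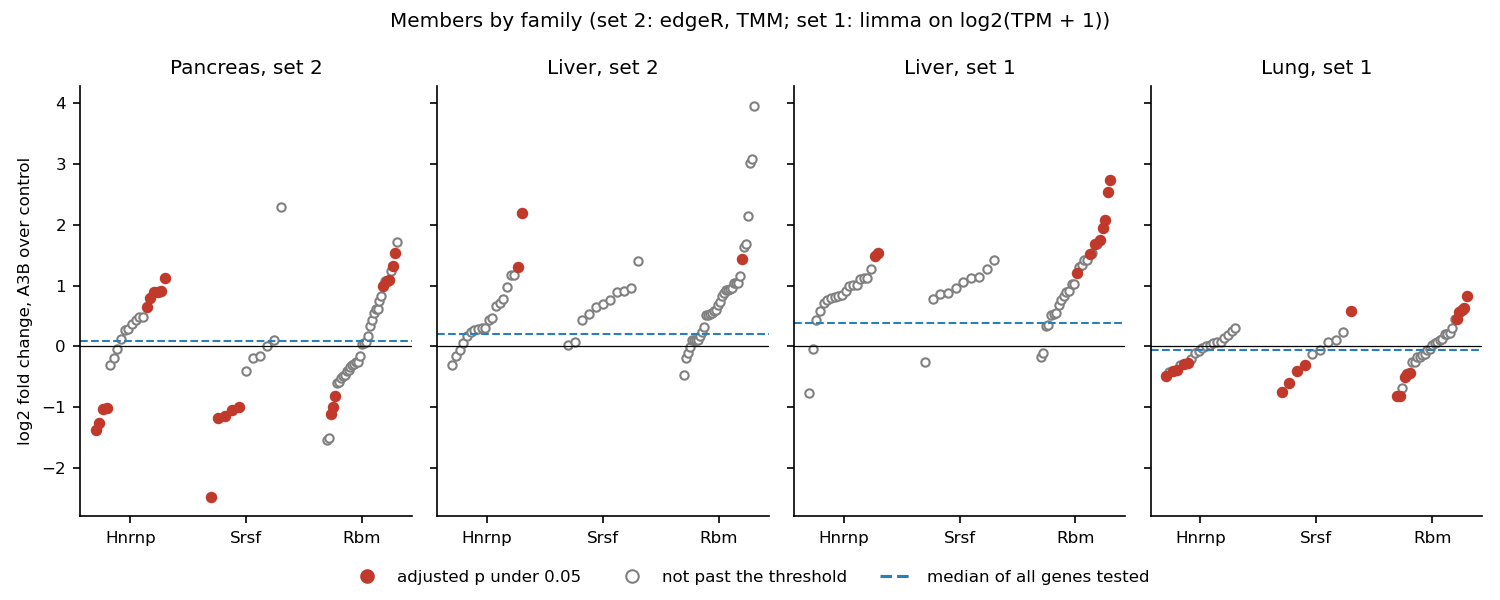
Log2 fold change of every member tested in the 4 comparisons, in order of size within each family, with filled points past an adjusted p of 0.05 and a dashed line at the median of all genes tested. The Srsf genes have a low median in the pancreas on the TMM scale shown, where 4 of their 5 called falls turn positive under totals, and most members sit above the dashed line in both livers.

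Of the 68 members tested in at least 1 of the 4 comparisons, 41 passed in at least 1 and 27 in none, against 47.2% of the 20720 genes tested in at least 1 that passed. Rbm31y, Rbm3os and Rbm46os were tested in none. Rbm27 rose in all 4, and its change in the pancreas was known when the members were chosen. Hnrnpa1, Hnrnpd and Rbm15 rose in 3, with Hnrnpa1 lower in the lung. Hnrnph1, Rbm10, Rbm4b and Srsf6 fell in the pancreas on the TMM scale and in the lung on the TPM scale, and on the TPM scale the pancreas values of the first 3 were above 0 (0.99, 1.27 and 1.04). The 2 members called in opposite directions were Hnrnpa1 and Rbm12b2.

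Whether the A3B effect differed between tissues was tested with an interaction term. Between pancreas and liver in set 2, the effect was lower in the pancreas for 7 members and higher for 0, against 5.03% of 19908 genes lower and 6.87% higher. They were Rbm8a2 (-4.37), Srsf6 (-2.85), Hnrnph3 (-1.89), Hnrnph1 (-1.84), Srsf2 (-1.75), Srsf7 (-1.55) and Srsf11 (-1.29), as log2 differences of fold changes by edgeR with TMM. Rbm8a2, a near copy of Rbm8a, lay under 1 TPM in every sample. For Srsf6 the SE was 0.48 and the adjusted p 0.00343, and it was the only 1 of the 7 that passed without any 1 library. Leaving out control liver 45 or 168 left 1 member called, leaving out control pancreas 168 left 2, and leaving out A3B liver 49 gave 14. Without A3B liver 49, 7.13% of all genes were lower in the pancreas. With the mouse as a block in the 7 mice that gave both tissues, Srsf6 (-2.68) and Srsf2 (-1.61) passed, and without the block in the same mice 5 did. Of all genes 2.52% were lower with the block and 4.84% without it. Scaling by totals called 28 of 68 members higher in the pancreas and 0 lower, close to the 39.4% of all genes higher under it, with a median of all genes of 1.59. None of the 7 was still called under totals, and Srsf11 turned to 0.31.

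Between lung and liver in set 1, the A3B effect was lower in the lung for 21 of 58 members and higher for 0 by limma, against 8.81% of 13477 genes lower and 1.94% higher. The largest differences were those of Rbm12b1 (-3.41 ± 0.50, SE), Rbm12b2 (-2.89 ± 0.32), Rbm3 (-2.33 ± 0.67), Hnrnpa1 (-2.02 ± 0.28), Rbm43 (-1.85 ± 0.49) and Srsf1 (-1.81 ± 0.33). For Hnrnpa1 the adjusted p was 0.00359 and the effect had opposite signs in the 2 tissues. The median over the 58 members was -1.03 and that over all genes -0.39. Setting the sample medians equal left 5 (Hnrnpa1, Rbm12b1, Rbm12b2, Rbm39 and Srsf1), and leaving out 1 library gave 8 to 41, with 8 without control liver 91 or 92, without control lung 87 or 91 or without A3B lung 69 or 70, 9 without control lung 88 or A3B lung 74, and 41 without control liver 11. Of all genes 2.26% were lower with equal medians, 18.3% without control liver 11 and 3.35 to 4.84% in the fits that called 8 or 9 members. A block for the 2 mice with both tissues raised the count to 35, with 16% of all genes lower.

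Because set 2 was deposited per transcript, the share of a gene's TPM in transcripts annotated as non-productive (nonsense-mediated decay, non-stop decay, retained intron or processed transcript) could be followed. The junctions of Srsf6, which stands apart in the pancreas, and of Srsf3 show how such a transcript differs from the coding one. In both, the decay transcript joins a coding exon to an exon with a stop that the coding transcript skips. The 15 bases before the splice junction are shown in lower case and the 15 after it in capitals, 5′ to 3′ on the plus strand, from GENCODE M21 transcripts on GRCm38. The shared exon ends at chr2:162932128-162932142 in Srsf6, and the bases after it are chr2:162933426-162933440 in the coding transcript and chr2:162932815-162932829 in the decay transcript. For Srsf3 the shared end is chr17:29038610-29038624, followed by chr17:29040775-29040789 in the coding and chr17:29039454-29039468 in the decay transcript.
Srsf6-203, coding: gctacggaagccgcaGTGGTGGAGGTGGAT
Srsf6-201, decay: gctacggaagccgcaTGACCAATGGGGCTG
Srsf3-202, coding: tccacctcggcgcagATCCCCAAGAAGGAG
Srsf3-201, decay: tccacctcggcgcagAGTCACCATCATGTC
The extra exon is 268 bases long in Srsf6-201, which ends its reading frame after 135 residues in place of 339, and 456 bases long in Srsf3-201, which ends it after 124 in place of 164. In Hnrnpa1 all coding exons are shared, and transcript Hnrnpa1-203 differs from the coding Hnrnpa1-202 in the splice after the stop codon, where the exon that ends at position 103244028 of chromosome 15 is joined to position 103246346 instead of 103244256.

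In the pancreas, limma on the log2 ratio of non-productive to coding TPM gave a lower share in 14 of 48 members tested and a higher one in 1, against 15.9% of 9323 genes lower and 3.38% higher. The median log2 change of all genes was -0.86 and that of the members -1.13. The acinar, macrophage and fibroblast markers given above moved with the groups here too, and their part in the shares was not tested. Over all genes, tested or not, non-productive transcripts held 7.25 to 11.6% of the summed non-productive and coding TPM in A3B pancreases and 8.52 and 8.49% in the controls, with 4 of the 6 A3B pancreases above both. Over the 9323 genes tested, the median share was 10.1 to 20.6% in A3B pancreases and 17.7 and 24.1% in the controls, so the groups overlap. The Hnrnp genes made up 8 of the 14, with a median of -2.01 over the 15 tested.

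Hnrnpa1 had 16.05 to 33.6% (median 23.1%) of its TPM in non-productive transcripts in A3B pancreases and 63.9 and 59.5% in the controls, a log2 change of -2.42 ± 0.48 (SE, limma adjusted p = 0.0133). Hnrnpa1-202 lay at 146 to 253 TPM in A3B pancreases and at 6.2 and 17.3 TPM in the controls, while Hnrnpa1-203 lay at 33.5 to 67.9 TPM against 4.30 and 15.3 TPM. Both transcripts were higher in TPM, and the coding one by more. Hnrnpm, which binds GU-rich RNA, had 2.34 to 10.1% (median 7.40%) against 37.8 and 36.5%, with -3.20 ± 0.63 (SE, limma adjusted p = 0.0131). Hnrnpk, which binds C-rich RNA, had 10.4 to 35.3% (median 20.1%) against 51.9 and 51.3%, with -2.05 ± 0.56 (SE, limma adjusted p = 0.0306). In these 3 genes the groups do not overlap.

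Srsf2 was the 1 Srsf gene of 10 to pass, with 12.6 to 40.1% (median 32.0%) against 61.2 and 65.5% and a log2 change of -2.22 ± 0.60 (SE, limma adjusted p = 0.0299). Its retained-intron transcript Srsf2-203 overlapped between groups in TPM, at 5.91 to 41.6 TPM against 11.3 and 34.4 TPM, whereas its coding transcript Srsf2-201 lay at 38.4 to 59.3 TPM against 7.97 and 13.8 TPM. Srsf6, with the junctions shown above, did not pass and overlapped between groups, with 60.4 to 79.9% (median 73.8%) in A3B pancreases and 76.8 and 74.3% in the controls. Srsf6-201 lay at 33.5 to 75.9 TPM against 32.6 and 46.7 TPM and Srsf6-203 at 13.3 to 35.5 TPM against 14.5 and 28.4 TPM, so neither transcript separated the groups. Srsf3 had 59.2 to 76.2% (median 68.5%) against 57.8 and 65.0%.

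Among the Rbm genes Rbm19, a nucleolar protein, went from 98.6 and 93.3% in the controls to 52.3 to 69.6% (median 59.3%) in A3B pancreases, with -3.76 ± 0.49 (SE, limma adjusted p = 0.00268), and it was the only call that held without any 1 library. Rbm33 (-3.71), Rbm3 (-2.71), Rbm17 (-2.07) and Rbm34 (-1.87) fell with it, and Hnrnpul1 (-2.78), Hnrnpa2b1 (-2.46), Hnrnpl (-2.35), Hnrnph1 (-2.26) and Hnrnpul2 (-2.01) completed the Hnrnp genes. In Hnrnpul1 the share was under 3% in every sample. Rbm48, a factor of the minor spliceosome, had the only higher share, with 17.7 to 56.1% (median 43.0%) against 0 and 6.87% and a log2 change of 2.24 ± 0.58 (SE, limma adjusted p = 0.0264). It did not pass with a pseudocount of 0.5 TPM (adjusted p = 0.128 by limma), on counts per unit of depth (0.0506) or without either control. Without A3B pancreas 53, 5 members had a lower and 1 a higher share, against 7.70% of all genes lower and 1.91% higher. Without A3B pancreas 137 they were 6 and 1, against 9.26% and 2.36%. Without either control, which leaves 1 control, fewer members still had a lower share, and the share of all genes called lower was also below that of the full fit. Counting only nonsense-mediated decay and non-stop transcripts gave 4 lower and 5 higher of 30 members tested, against 11.7% of 2894 genes lower and 5.60% higher. Of the 14 members with a lower share, 7 could be tested that way and all 7 stayed below 0.

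In the livers of set 2 limma called a higher share in 0 of 49 members and a lower share in 0, with 2 at an unadjusted p under 0.05 against 11.7% of genes, and the background was 0.0468% higher and 0% lower of 8539 genes. Hnrnpa1 had 16.6 to 36.1% (median 32.2%) in A3B livers against 56.8 and 62.8% in the controls. These groups do not overlap, but with a log2 change of -1.94 ± 0.52 (SE, limma adjusted p = 0.209) it did not pass. Rbm33, the other member under that p, had 0 to 2.68% against 8.63 and 2.98%. Srsf2 overlapped between groups, with 10.3 to 40.4% (median 17.5%) against 27.6 and 27.2%. Its only value above the controls was that of A3B liver 48.

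A3B liver 48 stood apart in many members. Its share was 61.4% in Hnrnpm, where the other 5 A3B livers lay at 4.12 to 7.55% and the controls at 5.96 and 3.16%, and 63.4% in Hnrnpk, where the others lay at 5.46 to 13.8% and the controls at 7.38 and 14.5%. The retained-intron transcript Hnrnpm-213 lay at 33.2 TPM in this liver and under 1 TPM in every other liver. Rbm19, Rbm17 and Hnrnpl were highest there too, at 87.3, 67.3 and 74.9%. Without it, 1 member of 48 had a higher and 1 a lower share in the liver, against 1.42% of 8520 genes higher and 0.200% lower, and 3 members rose by edgeR as with it.

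**Figure D5:**
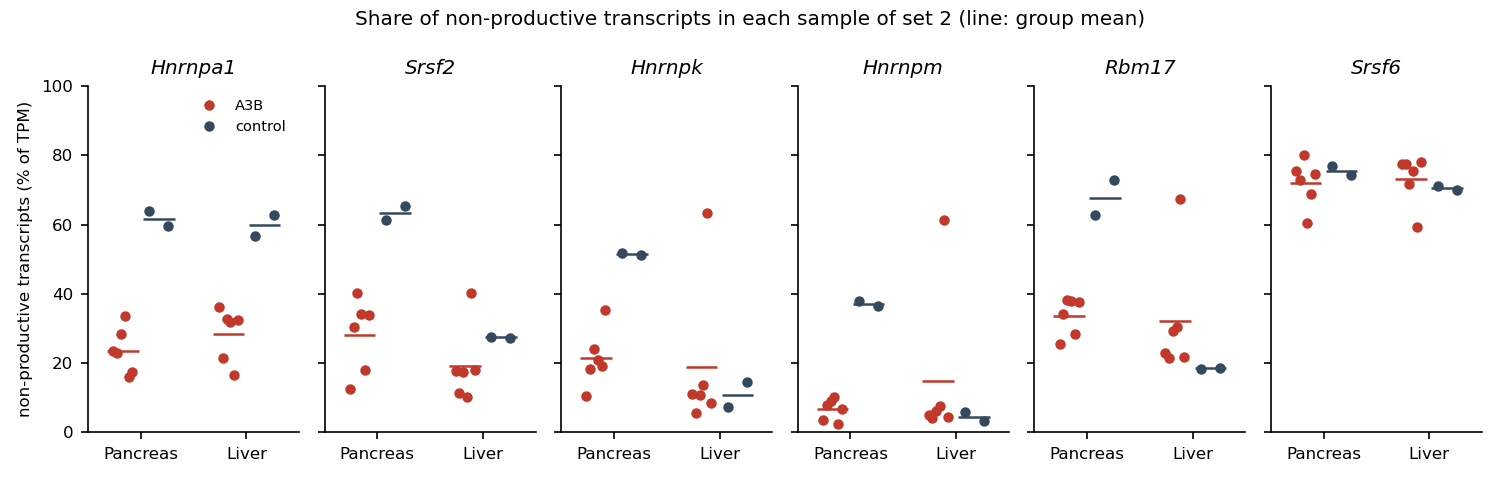
Share of non-productive transcripts (percent of TPM, y axis) of 6 members in each pancreas and liver of set 2, with points for samples and lines for group means. Hnrnpa1 is lower in A3B samples of both tissues, Srsf6 overlaps between groups, and 1 A3B liver lies far above the others in Hnrnpk, Hnrnpm and Rbm17.

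Other genes of the splicing pathway were read from lists of named genes. In the pancreas their counts are to be read against the 17.0% of all genes that rose and the 14.9% that fell. SR protein kinases and their phosphatase, which set how far SR proteins are phosphorylated, had 1 of 12 higher and 4 lower in the pancreas on the TMM scale, with a median of -0.60 against 0.09 for all genes, among them Clk4 (-1.62), Prpf4b (-1.09) and, as the rise, Dyrk1a (1.14). SR-related proteins had 4 of 23 higher and 4 lower there, with Srrm4 (2.56) and Scaf8 (1.30) up and Luc7l2 (-1.37) down. Core spliceosome proteins had 12 of 56 higher and 9 lower, with Dhx38 (1.72), Bcas2 (-1.24) and Sf3b6 (-1.27). Other hnRNP-type proteins had 10 of 46 higher and 3 lower, with Rbpms (1.498), Pspc1 (1.27) and Rbfox2 (1.02), and factors of nonsense-mediated decay and the exon junction 2 of 16 higher and 1 lower, with Smg8 (1.38), Pym1 (0.69) and Upf3b (-1.55). Whether these list counts keep their signs under totals was not tested.

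In the livers of set 2, where 1.26% of all genes rose, the 3 SR-related genes Srrm4 (2.55), Tra2b (1.39) and Tra2a (1.34) and the 3 hnRNP-type genes Fubp1 (1.62), Rbmxl1 (1.49) and Rbfox2 (1.23) rose by edgeR, and the other 3 lists had 0 genes called. In the livers of set 1, where 6.07% of all genes rose, 5 of 22 SR-related genes rose, with Bclaf1 (2.16), Tra2b (1.62) and Tra2a (1.59), and 8 of 38 hnRNP-type genes, with Pspc1 (1.90), Rbmxl1 (1.86) and Ptbp2 (1.76). The other lists there had 1 rise each, in Prpf39 (2.20) of 55 core spliceosome genes, Smg1 (2.17) of 15 decay factors and Dyrk1a (1.19) of 11 kinases and phosphatases, and 0 genes fell in any list by limma. In the lungs, where 16.1% of all genes rose and 20.8% fell, 15 of 55 core spliceosome genes fell and 6 rose, with Snrpd1 (-0.70), Snrpa (-0.69) and Snrpd3 (-0.61) down. SR-related genes there had 7 of 22 higher and 2 lower, with Bclaf1 (0.63), Scaf11 (0.60) and Srrm2 (0.59), hnRNP-type genes 7 of 41 higher and 4 lower, with Mbnl2 (0.83), Fubp1 (-0.72) and Tardbp (-0.75), decay factors 3 of 16 higher and 2 lower, with Smg1 (0.90) and Upf3a (-0.61), and kinases and phosphatases 2 of 11 each way, with Dyrk1a (0.40), Prpf4b (0.37) and Ppp1ca (-0.44).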

How the data were processed

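Per the labels, RNA of mouse tissues was made into stranded TruSeq libraries. For set 2 the authors quantified transcripts with kallisto and deposited estimated counts and TPM for 119414 transcripts, on mm10/GRCm38 by their processing notes. The annotation release is not given in the sources used here. For set 1 the authors deposited gene-level TPM after removing duplicate reads, per the file headers. GENCODE M21 symbols matched 116640 transcripts, which were summed to 35858 symbols. Unmatched transcripts held 0.230 to 1.47% of counts and stayed out of the tests.

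Estimated counts were rounded and tested with edgeR 4.0.16 (filterByExpr, TMM, robust quasi-likelihood test), and TPM with limma 3.58.1 (trend, robust) on log2(TPM + 1) where the average over samples reached 1 TPM, in R 4.3.3. On that scale fold changes of low genes are understated. The non-productive share was tested with limma on log2 of (non-productive TPM + 0.1) over (coding TPM + 0.1), where a gene averaged 1 TPM or more in all and 0.1 TPM or more in each class. P-values were Benjamini-Hochberg adjusted over all genes tested with a threshold of 0.05. Where nothing says that samples of a group were separate litters or cohorts, p-values measure only the spread between these animals. An exact permutation of 6 against 2 samples cannot go below 0.0357 and of 3 against 3 not below 0.1, so single values were not tested that way. Alternatives were DESeq2 1.42.0, scaling by totals, RLE, no filter, TPM, other pseudocounts, equal sample medians, a block for the mouse and leaving out each sample. The test code was run on simulated data with known changes, as a check of the code alone. The simulated counts had less spread than these libraries and no shift of most genes like that in the pancreas. Analyses used no samples beyond those in the labels.

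The members and lists were chosen with earlier results of these data known. Named are all members past the threshold, a fixed list of members, the most and least abundant, the 6 members with the smallest p for the share and up to 3 genes per list. The result of 1 list gene is not reported here. Same-numbered liver and pancreas samples come from the same mouse. The deviations of liver and pancreas from the group means correlated at 0.20, 0.26, -0.00, 0.23 and 0.09 in A3B mice 44, 137, 49, 125 and 153. In the controls the value was 0.01, and it is 1 value for both, since 2 animals deviate from their mean by mirrored amounts. Marker lists of acinar, endocrine, ductal, hepatocyte, T, B and plasma cells, macrophages, fibroblasts, endothelium, alveolar type II and airway cells were summed per sample. Of those lists, T cell, B and plasma cell, airway and hepatocyte markers had 0 genes past the threshold in the pancreas, endocrine markers 2 of 9 lower, ductal markers 3 of 7 higher, alveolar type II markers 2 of 6 higher and endothelial markers 1 of 6 higher.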

Additional observations from a re-analysis of the deposited data

Results flagged for a closer look

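The 6 A3B samples were examined by Dixon's test in 68 groups, which are the set 2 levels and non-productive shares of the members that passed and of others named in the text. A sample lay beyond the critical value of 0.625 in 9 of them, where chance alone gives about 1 in 20. Several of the liver shares were included after A3B liver 48 had been seen to stand apart, so the 9 cannot be read against that rate. Rbm3 reached 350.7 TPM in A3B liver 49, where the other 5 A3B livers lay at 53.8 to 143 TPM. Srsf5 reached 582 TPM in A3B liver 125, where the others lay at 174 to 301 TPM. The non-productive share of Srsf6 was 59.2% in A3B liver 48, where the others lay at 71.8 to 78.0%. In the same liver it was 61.4% for Hnrnpm (others 4.12 to 7.55%), 63.4% for Hnrnpk (5.46 to 13.8%), 74.9% for Hnrnpl (20.2 to 34.8%), 67.3% for Rbm17 (21.4 to 30.4%), 87.3% for Rbm19 (13.75 to 34.8%) and 40.4% for Srsf2 (10.3 to 18.1%).

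The effect of A3B differed between tissues in 7 members of set 2 and 21 of set 1 by the interaction term. The log2 difference of the fold changes, pancreas minus liver, was -4.37 for Rbm8a2, -2.85 for Srsf6, -1.89 for Hnrnph3, -1.84 for Hnrnph1, -1.75 for Srsf2, -1.55 for Srsf7 and -1.29 for Srsf11 (edgeR, TMM). The difference of lung minus liver was -3.41 for Rbm12b1, -2.89 for Rbm12b2, -2.33 for Rbm3, -2.02 for Hnrnpa1, -1.85 for Rbm43, -1.81 for Srsf1, -1.67 for Rbm39, -1.57 for Rbm25, -1.51 for Hnrnph1, -1.47 for Hnrnpu and -1.46 for Hnrnpd (limma). It was -1.38 for Rbm27, -1.28 for Rbm22, -1.28 for Srsf3, -1.27 for Srsf6, -1.27 for Rbm34, -1.10 for Hnrnpm, -1.07 for Hnrnpll, -1.04 for Rbm18, -1.04 for Rbm17 and -0.80 for Rbm45.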

How the results depend on the processing

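The counts of members that rose or fell in the pancreas moved from 11 and 12 to 59 and 0 when scaled by totals and to 58 and 0 with limma on TPM, where 70.5% and 83.9% of all genes were higher. Under totals the values of members that fell on the TMM scale became 0.99 (Hnrnpa3), 1.13 (Hnrnpdl), 1.12 (Hnrnph1), 0.88 (Hnrnph3), 1.48 (Rbm10), 1.30 (Rbm4b), 1.08 (Rbm5), 1.18 (Srsf11), 1.05 (Srsf2), 1.0 (Srsf5) and 1.05 (Srsf7), and under TPM 1.39, 1.09, 0.99, 0.58, 1.27, 1.04, 1.13, 1.26, 1.04, 1.43 and 1.52 in the same order. Srsf3 and Hnrnpa2b1, not called on the TMM scale, became 1.97 and 1.82 under totals and 2.51 and 1.80 under TPM. The scaling itself moved the median of all genes, as given above. In the livers of set 2 the count of 3 became 12 with DESeq2, 16 by totals and 10 with limma on TPM, with 0 members lower in each. In the livers of set 1 the count of 10 became 0 when every gene above 0 was kept and 3 with equal sample medians, and the cause was not tested. The lung counts stayed within 1.5 times under the other pseudocount, filter and medians.

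The count of 7 members that differed between pancreas and liver became 15 with DESeq2, all lower in the pancreas, and 9.63% of all genes were lower there. By totals 28 members were called in the opposite direction and 0 in the same, and Srsf11 turned to 0.31. With the mouse as a replicate block it was 2, against 5 without the block in the same mice, where 2.52% and 4.84% of all genes were lower. Between lung and liver the count of 21 became 5 with equal medians and 35 with the replicate block, while the share of all genes lower in the lung went from 8.81% to 2.26% and 16%. For the non-productive share in the pancreas, a pseudocount of 0.5 TPM gave 22 of 48 lower against 40.6% of all genes, decay transcripts alone 4 lower and 5 higher, and a minimum of 5 TPM, under which Rbm48 was not tested, 0 higher. Leaving out 1 sample gave 7 to 11 higher and 6 to 13 lower in the pancreas, 0 to 8 higher in the livers of set 2, 0 to 21 higher in those of set 1, 6 to 8 higher and 5 to 13 lower in the lung, 1 to 14 between pancreas and liver, and 8 to 41 between lung and liver. For the share it gave 0 to 2 higher and 2 to 13 lower in the pancreas and 0 to 1 either way in the liver. Members lower in either liver stayed at 0 throughout. With 2 controls per tissue in set 2, small changes lie beyond what these samples can show.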
